A study of Mus musculus with 10 samples.

Results

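A set of 10 genes that mark oligodendrocyte precursors and the steps by which they become oligodendrocytes was described in the spinal cord of adult mice: Pdgfra, Cspg4, Gpr17, Olig1, Olig2, Sox10, Nkx2-2, Myrf, Bcas1 and Enpp6. They were chosen by name as lineage genes, and all 10 were found among the 25232 genes of the table. RNA-seq was performed on spinal cord of C57BL/6 female mice at 90 days of age, an early symptomatic stage of the model. The WT group held 5 littermates without the transgene, and the SOD1 G93A group held 5 mice carrying many copies of a human SOD1 gene with the G93A mutation, kept on a C57BL/6J background. This transgene models an inherited form of amyotrophic lateral sclerosis by overexpression of the mutant human protein from its own promoter, so it is active in glia as well as in neurons. The labels give spinal cord as the tissue, and the study's methods give its lumbar region.

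The value used for each gene is the base mean, the authors' mean over all 10 libraries of the read count after scaling each library for its depth. WT and SOD1 G93A libraries enter that mean together. The levels below therefore describe the tissue over both genotypes, and no comparison of SOD1 G93A with WT was made. The base means of all genes summed to 22158933 counts, which is the depth of an average library, and 20973 of the 25232 genes were above 0. To compare genes with each other, each base mean was divided by the length of the gene's annotated exons, which gives the base mean per kb of exon, here the level per kb. Intervals are 95% intervals of counting error only. The spread between mice was not analysed here, since only the base mean of each gene was used.

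Oligodendrocyte precursors are dividing glia that persist in the adult spinal cord. Platelet-derived growth factor acts on their receptor PDGFRA and keeps them dividing, and they carry the proteoglycan NG2 on their surface. When they leave the cell cycle they pass through a committed stage marked by GPR17, BCAS1 and ENPP6, and then make myelin. OLIG1, OLIG2, SOX10 and NKX2-2 set the lineage, and MYRF, which SOX10 switches on, turns on the genes of myelin. In bulk tissue a low level from few cells and a low level from little RNA per cell cannot be told apart.

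All 10 genes were detected, and their levels per kb spanned 68.4-fold (66.9 to 70.0) from Cspg4 to Bcas1. In descending order the genes were Bcas1, Olig1, Sox10, Myrf, Olig2, Gpr17, Enpp6, Pdgfra, Nkx2-2 and Cspg4. The median level per kb of the 10 was 410.3, beside 63.5 for the 20358 genes with a level above 0 and a known length. The percentile of a gene is the share of those 20358 genes at a lower level. The 10 genes had a median percentile of 85.8, and 6 of them (Bcas1, Olig1, Sox10, Myrf, Olig2 and Gpr17) lay above the 75th percentile. Enpp6, at percentile 74.2, lay just below it. Together the 10 genes took 0.173% of all counts. With all annotated exons as the length, no neighbours in the order had overlapping counting intervals, and the smallest step was between Pdgfra and Nkx2-2, at 1.23-fold. With the longest transcript the order was the same, but Sox10 was only 1.01-fold above Myrf and their intervals overlapped. Undivided base means gave another order, with Myrf in place 2 and Olig2 in place 8. Whether such steps exceed the spread between mice was not tested.

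**Figure D1:**
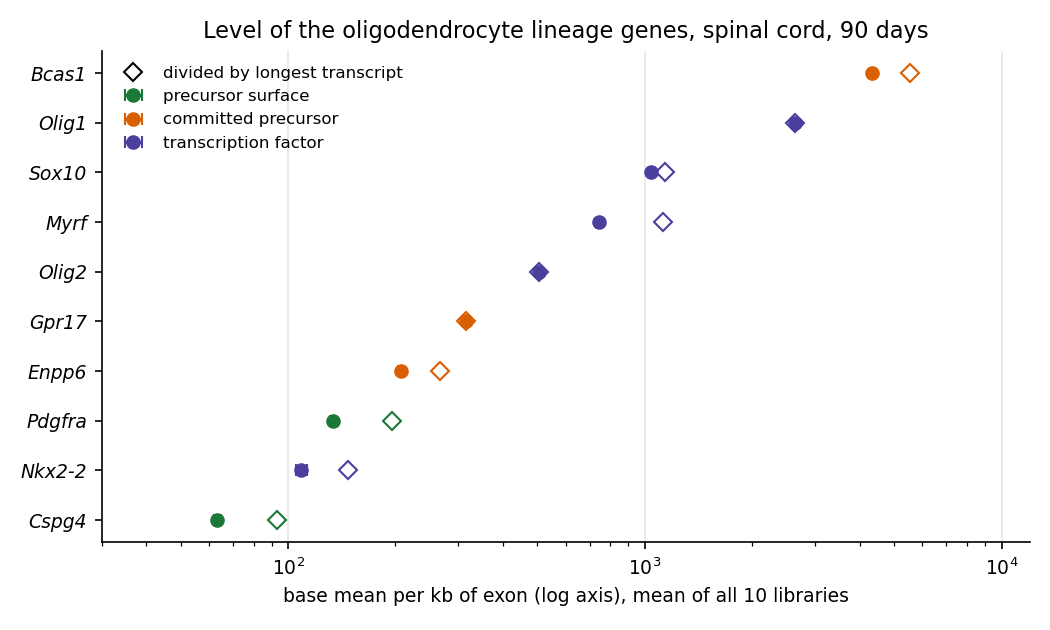
Base mean per kb of exon (log axis) of each of the 10 genes, as the mean of all 10 libraries. Filled circles divide by all annotated exons and carry 95% counting intervals, mostly narrower than the circle, and open diamonds divide by the longest transcript alone. Bcas1 was highest at 4329.6 and Cspg4 lowest at 63.3, and both lengths gave the same order.

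**Figure D2:**
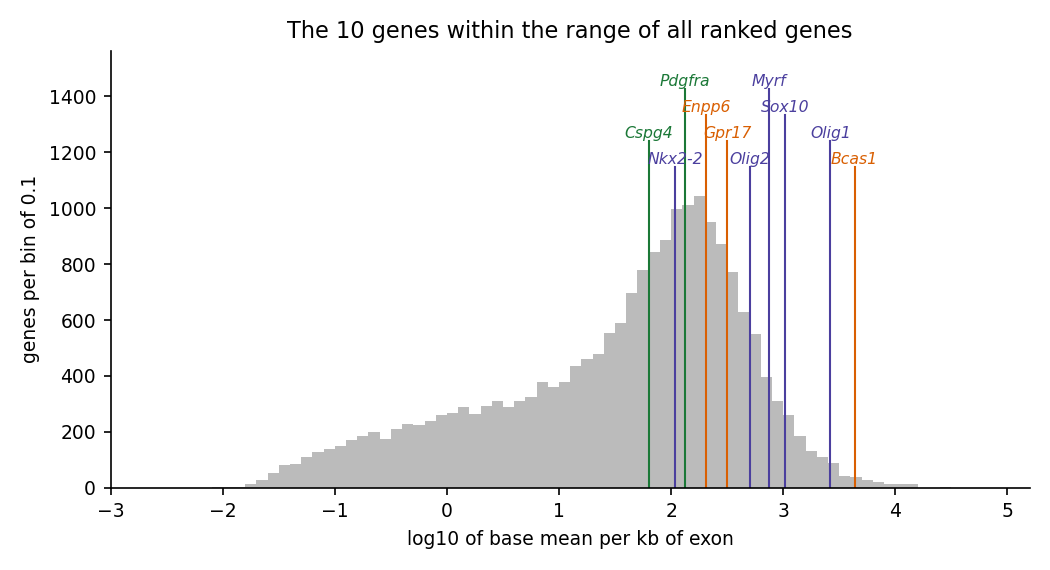
The number of genes in each bin of log10 base mean per kb of exon, for the 20358 ranked genes, with a line at each of the 10 lineage genes in the colours of the plot of their levels. Nkx2-2, Pdgfra and Cspg4 lie in the body of the distribution, and Bcas1 and Olig1 in its upper tail.

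The genes of the precursor surface were the lowest group. Pdgfra, the receptor for PDGF-AA, is annotated on chr5:75152292-75198215 (plus strand, GRCm38). It had a base mean of 1338 counts and a level per kb of 133 (131 to 136), at percentile 64.5. Cspg4 encodes the NG2 proteoglycan on chr9:56865033-56899870 (plus strand). Its base mean was 755 counts, with a level per kb of 63.3 (61.9 to 64.7), at percentile 49.96. Per kb, Pdgfra was 2.11-fold above Cspg4 (2.05 to 2.17), and Cspg4 stood at the median of all ranked genes.

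The ligands and the second receptor of the PDGF family set the level of Pdgfra in context. Pdgfa, whose product is the main ligand for PDGFRA on precursors, had a level per kb of 285, which was 2.13-fold that of its receptor (2.08 to 2.19). The direction rests on the division by length: it was the same with the longest transcripts (2.20-fold), but the undivided base mean of Pdgfa was 0.664 of that of Pdgfra. Among the other ligands, Pdgfd had a level per kb of 211, Pdgfb 79.3 and Pdgfc 23.1. Pdgfrb, the receptor on pericytes, had a level per kb of 133, and Pdgfra was at 1.00 of it (0.976 to 1.03). This near equality holds for the full exon length alone, since Pdgfra was 1.46-fold above Pdgfrb per kb of the longest transcript.

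Other genes known from precursors had a wide range around these members. All 12 of them were detected, with a median level per kb of 77.2, and 4 of the 12 lay above the 75th percentile. These were Lhfpl3 at a level per kb of 459, the receptor tyrosine phosphatase Ptprz1 at 362, the secreted C1q-like protein gene C1ql1 at 299 and the AMPA receptor auxiliary subunit Cacng4 at 260.5. Pcdh15, a protocadherin gene, was lowest at 24.7. Vcan, which encodes the proteoglycan versican, had a level per kb of 62.9.

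Both precursor surface genes are also expressed by cells outside the lineage. Fibroblasts of the meninges and vessels express Pdgfra, and all 5 fibroblast markers were detected. Their summed level per kb was 339.5, with Dcn highest at 112, Col1a2 at 101 and Lum lowest at 27.5, and Pdgfra was 1.19-fold above Dcn per kb (1.15 to 1.22). Pericytes express Cspg4, and all 5 pericyte markers were detected. Their summed level per kb was 898, of which Rgs5 gave 627, while Anpep was lowest at 20.5. The part of these cells in the levels of Pdgfra and Cspg4 was not tested.

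The genes of the committed precursor ranged over 20.9-fold per kb. Bcas1, whose product is found in precursors that begin to form myelin and later in myelin itself, lies on chr2:170346991-170427845 (minus strand). It had a base mean of 16344 counts and a level per kb of 4329.6 (4309 to 4351). That was rank 113 of 20358, at percentile 99.4, and gave 43.0% of the summed level per kb of the 10 genes. Gpr17, a receptor found transiently between the dividing precursor and the myelinating cell, lies on chr18:31942997-31949636 (minus strand). The base mean of Gpr17 was 1639 counts, with a level per kb of 316 (311 to 320.4), at percentile 82.3. Enpp6, a choline phosphodiesterase of newly formed oligodendrocytes, lies on chr8:46986887-47096762 (plus strand). Its base mean was 1327 counts, with a level per kb of 207 (203 to 210.5).

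Gpr17 and Enpp6 were thus close to each other, with Gpr17 1.52-fold higher per kb (1.49 to 1.56), and Bcas1 stood apart. Per kb, Bcas1 was 13.7-fold above Gpr17 (13.5 to 13.9) and 20.9-fold above Enpp6 (20.6 to 21.3). Gpr17 was 2.36-fold above Pdgfra (2.31 to 2.42), and 1.61-fold with the longest transcripts. Bcas1 lay among the genes of mature myelin: Mag, a myelin adhesion protein, was 1.32-fold above it per kb, and Mog, a protein of the outer myelin surface, was at 0.725 of it.

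Other genes of newly formed oligodendrocytes were mostly low. All 8 were detected, with a median level per kb of 32.6, and 2 of the 8 lay above the 75th percentile. These were Fyn, a Src-family kinase that acts in early myelination, at 597, and Tns3, a focal adhesion protein, at 341. Itpr2, a calcium release channel, had a level per kb of 59.4, Bmp4 28.6 and the Wnt effector Tcf7l2 12.9. Casr, the calcium-sensing receptor, was lowest at 1.12.

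Per kb, the lineage transcription factors filled the places just below Bcas1, with Nkx2-2 far lower. Olig1, a basic helix-loop-helix (bHLH) factor, is a gene of 1 annotated transcript on chr16:91269772-91271933 (plus strand). It had a base mean of 5697 counts and a level per kb of 2635 (2613 to 2657), at percentile 98.8. Its neighbour and family member Olig2, on chr16:91225457-91228677 (plus strand), had a base mean of 1278 counts and a level per kb of 505 (496 to 514), at percentile 89.3. The genes lie 41094 bases apart on the same strand with 1 annotated gene between them, and Olig1 was 5.22-fold above Olig2 per kb (5.12 to 5.32). Each has 1 annotated transcript, so the ratio was the same with either gene length. The third member of the family, Olig3, which is known from dorsal progenitors of the embryonic cord, had a level per kb of 14.5.

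Because reads of similar genes can be confused, the coding sequences of relatives were compared. The longest run of identical bases in Olig1 and Olig2 was 17 bases. It is shown in capitals with 30 bases on each side, from coding bases 262 to 338 of Olig1 and 304 to 380 of Olig2 (GENCODE M21), to show how soon the sequences part on either side.
Olig1: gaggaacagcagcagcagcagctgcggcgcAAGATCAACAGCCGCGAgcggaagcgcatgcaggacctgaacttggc
Olig2: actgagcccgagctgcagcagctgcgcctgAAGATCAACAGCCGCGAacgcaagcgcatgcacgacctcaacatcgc

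The run shared by Olig2 and Olig3 was longer, at 29 bases. All of these runs were shorter than the 100 bases of a read, and none of the 2431 windows of 100 bases in the Olig2 transcript was found in a transcript of another gene.

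Sox10, an HMG-box factor of the SoxE family, lies on chr15:79154908-79165240 (minus strand). The base mean of Sox10 was 3166 counts, with a level per kb of 1038 (1026 to 1049), at percentile 95.6. Per kb it was 1.76-fold above Sox8 (1.73 to 1.79), which acts beside it in the lineage, and 5.89-fold above Sox9 (5.75 to 6.05), which astrocytes express in the adult. Its longest run of identical coding bases was 44 with Sox9 and 26 with Sox8. The run shared with Sox9 is shown in capitals because it was the longest among the relatives compared, in coding bases 214 to 317 of Sox10 and 217 to 320 of Sox9.
Sox10: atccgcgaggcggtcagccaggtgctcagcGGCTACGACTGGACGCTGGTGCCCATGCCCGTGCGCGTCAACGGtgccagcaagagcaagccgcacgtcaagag
Sox9: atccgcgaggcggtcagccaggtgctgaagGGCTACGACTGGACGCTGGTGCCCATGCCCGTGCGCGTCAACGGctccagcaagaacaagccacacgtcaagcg

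None of the 2681 windows of 100 bases in the Sox10 transcript was shared with another gene. Schwann cells of the nerve roots also express Sox10. All 5 Schwann cell markers were detected, with a median level per kb of 41.7. Periaxin, encoded by Prx, had a level per kb of 86.8, and Egr2 was lowest at 11.5. The part of Schwann cells in the level of Sox10 was not tested.

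Myrf encodes a membrane-bound factor that cleaves itself and enters the nucleus to turn on myelin genes, and lies on chr19:10208272-10240748 (minus strand). It had a base mean of 6372 counts and a level per kb of 744 (738 to 750.1), at percentile 93.4. Its level depended most on the length used: divided by its longest transcript it was 1123, close to the 1139 of Sox10. Its relative Myrfl had a level per kb of 2.28.

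Nkx2-2, a homeodomain factor that marks ventral progenitors and acts again when precursors differentiate, lies on chr2:147177546-147194243 (minus strand). It was the lowest of the transcription factors, with a base mean of 313 counts and a level per kb of 109 (105 to 113), at percentile 60.2. Olig2 was 4.64-fold above it per kb (4.46 to 4.82). In its family only Nkx2-9 had a similar level per kb, at 117. Nkx2-1 and Nkx2-5 were each below 0.1 per kb, and Nkx2-3, Nkx2-4 and Nkx2-6 were listed at 0.

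Further regulators of oligodendrocyte differentiation were lower than most of these factors. Of 9 regulators known to promote it, all were detected, with a median level per kb of 159.7 and 2 above the 75th percentile. Sox8 was highest at 590.2, followed by the homeodomain factor Nkx6-2 at 499, and Tcf7l2 was lowest at 12.9. Of 6 regulators known to hold it back, all were detected, with a median level per kb of 54.5 and 2 above the 75th percentile. These were Id2 at 726 and Id4 at 595, which encode inhibitors of bHLH factors and are also active in astrocytes. The Notch targets Hes1 and Hes5 had levels per kb of 54.1 and 54.9, and Sox6 and Sox5 had 36.4 and 29.7.

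By their median, the genes of mature oligodendrocytes were far above the lineage genes, although the levels of single genes overlapped between the lists. All 14 were detected, with a median level per kb of 5688, which was 13.9 times the median of the 10 lineage genes, and 13 of the 14 lay above the 75th percentile. This is a ratio between lists of genes and not between precursors and mature cells. The lineage list holds Bcas1, whose product is also found in myelin, and the cells behind each lineage gene's level were not tested. The mature oligodendrocyte genes took 3.34% of all counts. Mbp, which encodes a main structural protein of central myelin, was highest at 37739.5 per kb. Opalin, a membrane protein of mature cells, had a level per kb of 415, and Aspa, which breaks down N-acetylaspartate, was lowest at 207.

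**Figure D3:**
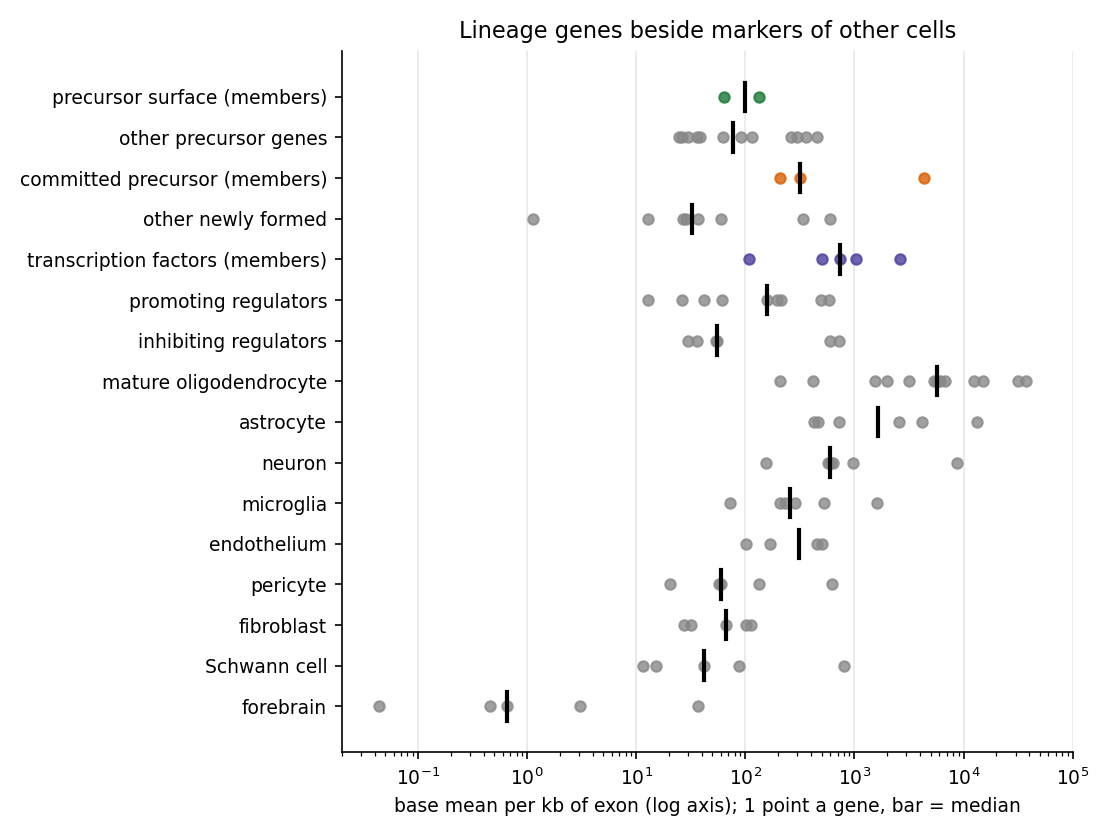
Base mean per kb of exon (log axis) of the lineage genes and of other lists, with 1 point for each gene and a bar at the median of each list, as means of all 10 libraries. Mature oligodendrocyte genes had a median of 5688, the lineage transcription factors 744, the committed precursor genes 316 and the precursor surface genes 98.4.

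The tissue label was checked against the markers of other cells and regions. Astrocyte markers had a median level per kb of 1651, neuron markers 601, endothelial markers 313 and microglia markers 256, with Gfap at 13345, Snap25 at 8695 and Cldn5 at 501 as the highest of the first 3 lists. Chat, which marks motor neurons and other cholinergic cells, had a level per kb of 156. All 5 Hox genes of the trunk were detected, with Hoxc8 at 479, and the lumbar genes Hoxc10 and Hoxd10 at 256 and 83.6. The forebrain genes had a median of 0.657 per kb, with Neurod6 highest at 36.7.

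Several of the lineage genes share exon sequence with a gene on the opposite strand. For Bcas1 this was 440 bases (11.7% of its exons) with Bcas1os1, for Nkx2-2 278 bases (9.67%) with Nkx2-2os, and for Olig1 157 bases (7.26%) with Gm15966. It was 456 bases (4.55%) for Pdgfra with Gm42802 and 188 bases (3.62%) for Gpr17 with Lims2. Nkx2-2os had a base mean of 155 counts and Lims2 of 522, while Bcas1os1, Gm15966 and Gm42802 had no base mean. Bcas1os2, which shares 34 bases (0.901%) with Bcas1 on the opposite strand, had a base mean of 1019 counts. The libraries were made with a strand-specific kit, but whether the counting used the strand is not given in the sources used here. Any share of such partners in these levels was therefore not tested. Of all 100-base windows in the longest coding transcript, 8.96% were shared with another gene for Nkx2-2, 8.66% for Bcas1, 2.81% for Olig1 and 0.471% for Gpr17, in each case with one of these opposite-strand genes. The other 6 genes shared none.

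The promoters of 5 of the 10 genes were matched in RefSeq (GRCm38.p6), as windows from 250 bases before to 50 bases after the start. They did not form one type. The CpG ratio, which is the number of CG pairs over that expected from the base content, had a median of 0.384 over all 32851 promoters. It was 0.815 for Olig2, 0.791 for Nkx2-2 and 0.631 for Cspg4, at percentiles 80.4, 78.3 and 66.2 of all promoters. It was lower for Enpp6, at 0.331, and for Pdgfra, at 0.256, which lay at percentiles 45.2 and 36.5. GC content ran from 40.3% for Enpp6 to 65.0% for Olig2, beside a median of 52.7%. The windows with the highest and the lowest CpG ratio are shown for the 250 bases before the start, with each CG pair in capitals, on the plus strand at chr16:91225300-91225549 (Olig2) and chr5:75152001-75152250 (Pdgfra).
Olig2: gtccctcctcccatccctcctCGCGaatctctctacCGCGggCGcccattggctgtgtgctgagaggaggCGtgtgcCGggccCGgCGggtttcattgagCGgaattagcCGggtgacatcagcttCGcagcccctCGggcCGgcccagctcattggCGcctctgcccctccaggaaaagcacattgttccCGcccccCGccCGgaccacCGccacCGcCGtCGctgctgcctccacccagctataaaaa
Pdgfra: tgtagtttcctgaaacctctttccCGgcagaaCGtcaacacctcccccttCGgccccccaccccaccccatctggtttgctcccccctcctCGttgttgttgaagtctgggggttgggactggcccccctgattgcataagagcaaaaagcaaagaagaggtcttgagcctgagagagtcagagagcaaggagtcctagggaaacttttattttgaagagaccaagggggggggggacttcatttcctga

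These stretches held 22 CG pairs for Olig2 and 4 for Pdgfra. The general bHLH motif CANNTG, read on both strands, occurred 3 times in the window of Nkx2-2 and 2 times in that of Pdgfra, and not in the windows of Olig2, Cspg4 and Enpp6, while 72.3% of all promoters held it. The form CAGATG, one of the CANNTG forms, occurred once each in Nkx2-2 and Pdgfra, and in 17.2% of all promoters. Neither CAGCTG (16.3% of all promoters) nor the Sox motif ACAAAG (18.7%) occurred in the 5 windows. The TATAAA box occurred in that of Olig2 and in 13.6% of all promoters. These are matches of letters and were not tested against the levels.

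**Figure D4:**
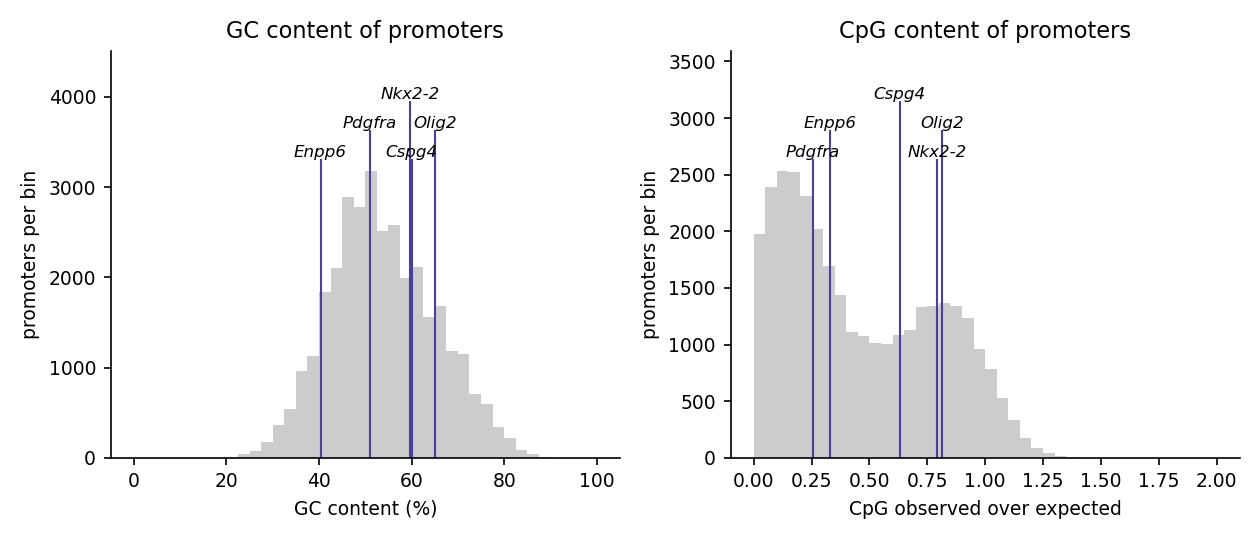
Number of RefSeq promoters in each bin of GC content (left, percent) and of the CpG ratio (right, observed over expected), with lines at the 5 matched lineage genes. Olig2, Nkx2-2 and Cspg4 lie in or near the CpG-rich group of promoters, and Pdgfra and Enpp6 in the CpG-poor one.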

How the data were processed

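Libraries were prepared with a strand-specific mRNA kit. RNA-seq reads were filtered with Fastp and aligned to mm10 with HISAT2 2.1.0, and uniquely mapped reads were counted per gene with featureCounts 2.0.2. The authors deposited 1 table, whose base mean is a signal averaged by DESeq2 over all 10 libraries after division by size factors. The gene annotation and the strand setting of the counting are not given in the sources used here. The other 5 columns hold the authors' own comparison of genotypes (fold change, its error, statistic and p-values) and were not used, so no test between groups was made. The table held 0 columns of single libraries.

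Exon lengths came from GENCODE M21 (GRCm38) by symbol, for 24310 genes holding 98.7% of the counts. Size factors were read from the lowest base means: all 1426 genes up to 0.35 were sums of whole reads divided by 10 size factors within 1e-07. Counting intervals (95%) follow from these and hold no variation between mice or from PCR. The recovery of size factors and the counting error were checked on reads simulated with counting error alone. That check covers the calculation and cannot show how much further variation the data hold. The sequence and promoter steps had no simulated check. Analyses used Python 3.11.15, pandas 2.3.3 and numpy 2.4.6.

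The 10 genes and all lists were chosen with earlier results of these data known, and the gene families and shared sequence windows were added after the values were seen. All 10 genes are named, with the highest and lowest of each list and up to 4 further genes for their role. A few genes of the lists are not reported here. Alternatives were the length used, the genes ranked and the summary of a list. Protein sequences were not used here.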

Additional observations from a re-analysis of the deposited data

How the results depend on the processing

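No paired analysis and no runs without single libraries were possible, because the base mean is 1 mean over all libraries. The planned comparison of genotypes was not made, since the authors' columns for it were not used. The number of lineage genes above the 75th percentile was 6, and it was between 6 and 8 under all 5 alternatives tried (the longest transcript, no division by length, only genes with base means from 10 upward, all genes with a length, and protein-coding genes only). Their median percentile was 85.8. It was 80.9 with the longest transcript, 82.1 with no division by length, 81.5 among genes with base means from 10 upward, 88.1 among all genes with a length, and 84.0 among protein-coding genes. The ratio of the mature oligodendrocyte genes to the lineage genes was 13.9 from medians. It was 16.1 with the longest transcript, 10.6 with no division by length, 10.2 from geometric means and 13.2 from summed levels. The order of the 10 levels per kb was the same with both lengths, and Myrf moved most, by 1.51 times. Ratios between genes moved further without division by length: Bcas1 to Cspg4 was 21.6 in place of 68.4, Bcas1 to Enpp6 12.3 in place of 20.9, Mog to Bcas1 0.327 in place of 0.725, Gpr17 to Pdgfra 1.23 in place of 2.36 and Pdgfra to Dcn 2.04 in place of 1.19, while Myrf to Sox10 turned from 0.717 to 2.01. The CpG ratio of Nkx2-2 fell from 0.791 to 0.539 when the 50 bases after the start were left out. Depth limits these levels little, since the counting error was 1.79% of the base mean for Nkx2-2 and lower for the other 9 genes. The spread between mice was not analysed here.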

Other observations

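Genes of tissues that adjoin the cord were also detected. The 4 skeletal muscle genes had a median level per kb of 52.9, with Acta1, the skeletal actin, highest at 163 and the myosin gene Myh4 lowest at 33.8. The 4 genes of sensory ganglia had a median level per kb of 7.48, with the peptide gene Calca, which motor neurons also express, at 359 and Mrgprd lowest at 2.80. In the family of Enpp6, Enpp2, which encodes autotaxin, was highest at 2496 per kb, 12.1-fold above Enpp6 (11.8 to 12.3). Enpp5 followed at 1410 per kb and Enpp4 at 434, while Enpp7 was listed at 0.

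The size factors of the 10 libraries, recovered from the lowest base means, were 0.840, 0.899, 0.950, 0.951, 0.958, 1.07, 1.07, 1.08, 1.09 and 1.15. The highest was 1.37 times the lowest. They fall into 5 values up to 0.958 and 5 from 1.07 upward. The values carry no library names and were assigned to no group.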
